A study of Schizosaccharomyces pombe with 4 samples.

Results

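The 7 genes described here encode subunits of the Clr6 histone deacetylase complexes of fission yeast (*Schizosaccharomyces pombe*). They are clr6, prw1, pst1, pst2, alp13, cph1 and cph2, and were taken by systematic identifier from a table of 6986 genes, where all 7 were found. The study compared a set2 deletion strain (SPKK1227, here set2d) with a wild-type strain (WT972, here WT). Total RNA of asynchronous cells, grown to log phase at 30 °C in YEA medium, was sequenced in 2 set2d libraries and 2 WT libraries. The labels name no other allele or treatment, and they do not say whether the replicates came from separate cultures or whether set2d is more than 1 isolate. The spread behind each p-value is therefore that between these 4 libraries and may be a technical one.

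Clr6 removes acetyl groups from histone tails and is the fission yeast relative of budding yeast Rpd3. It works in more than one complex. Complex I is built on the Sin3-type scaffold Pst1 and acts mainly at promoters, whereas complex II is built on the related scaffold Pst2 and acts over transcribed regions. Complex II also holds the chromodomain protein Alp13, a relative of budding yeast Eaf3, and the PHD finger proteins Cph1 and Cph2. Set2 puts methyl groups on lysine 36 of histone H3 along genes as they are transcribed, and complex II acts downstream of that mark, which in budding yeast helps direct the matching complex to silence transcription starting inside genes. The data measure RNA of the subunit genes, not the complexes or their activity.

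Deletion of set2 was read first in its own transcript. The set2 gene (SPAC29B12.02c) had 2257 and 1448 normalized counts in set2d replicates 1 and 2, against 10503 and 8665 in WT replicates 1 and 2. Both set2d libraries were below both WT libraries, and the log2 change was -2.40 (SE 0.22, limma adjusted p = 0.00041). On the other strand ino80 covers 5.23% of the set2 exons and may share reads with set2. The log2 change of ino80 was 0.55 (limma adjusted p = 0.0211). The source of the set2 counts left in set2d was not tested. Each value is an authors' normalized read count, deposited on a log2 scale with 10 as its lowest value, and every change given is set2d minus WT. The library medians were 5347 and 5518 normalized counts in set2d and 5175 and 5050 in WT. Across the genes tested, which are not independent replicates, Pearson's r of the log2 values was 0.989 for the set2d pair and 0.994 for the WT pair.

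One of the 7 complex genes passed the test across all genes. This was cph1, which was 1.82-fold higher in set2d, while clr6 itself and the other 5 did not pass (limma, Benjamini-Hochberg adjusted p under 0.05 over 6633 genes tested). Calls here and below are those of a fit without a block. A fit with the replicate number as a block also called pst2, prw1 and more of the list genes, as given near the end. The labels do not say what that number stands for. All 7 were above the filter on low values, and 1 higher and 0 lower stand beside a background of 11.6% of tested genes higher and 2.77% lower. In numbers of genes the background was 767 higher and 184 lower, or 574 and 275 with quantile normalization and 617 and 343 with each library centred on its median. With an unadjusted p under 0.05 as the rule, 2 members were higher and 0 lower, where the background was 18.6% and 9.62%. The members' median log2 change was 0.07, beside 0.01 over all genes tested. Both set2d libraries lay above both WT libraries for 2 members and below them for another 2, where the background was 31.5% and 26.2% of genes.

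**Figure D1:**
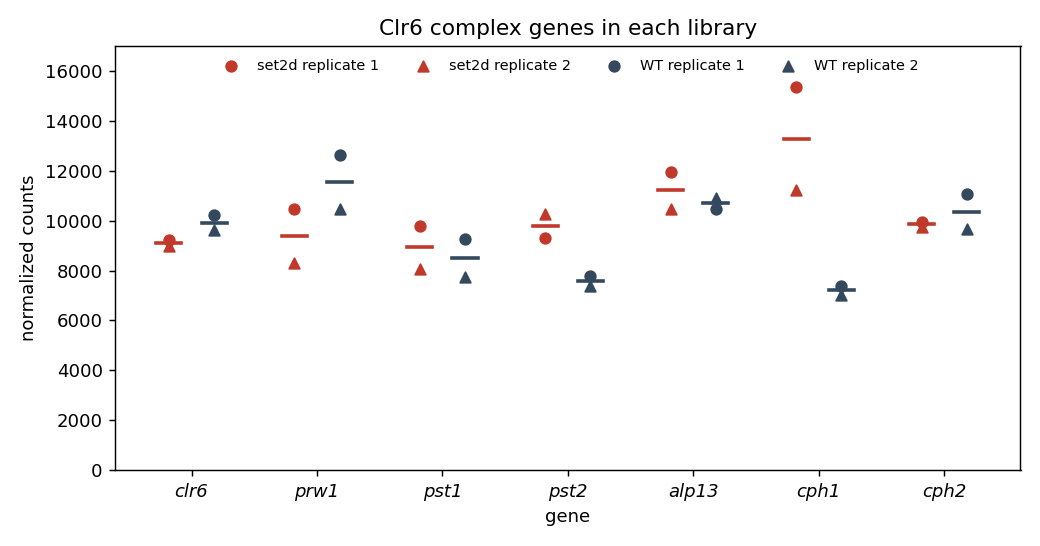
Normalized counts (linear axis) of the 7 Clr6 complex genes in each library, with set2d in red and WT in dark blue, circles for replicate 1, triangles for replicate 2 and a bar at each group's mean. The 2 set2d values of cph1, 15354 and 11215, sit well above its WT values of 7376 and 7029, while the groups lie close together or overlap for most of the other genes.

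In the fit without a block, neither the gene of the catalytic subunit nor that of Prw1, which both complexes share, passed the test. The deacetylase gene clr6 (SPBC36.05c, chromosome II) had 9229 and 8979 normalized counts in set2d, against 10215 and 9621 in WT. The set2d libraries were the lower ones without overlap, but the gap was small. The log2 change was -0.12 (SE 0.12, 95% interval -0.39 to 0.14, limma adjusted p = 0.535), so the interval spans 0.764 to 1.10 times the WT level. The gene prw1 (SPAC29A4.18, chromosome I) encodes a WD repeat protein of the histone-binding chaperone family and had 10466 and 8286 normalized counts in set2d, against 12632 and 10482 in WT. Its set2d libraries were again below both WT libraries, with only a thin margin between set2d replicate 1 (10466) and WT replicate 2 (10482). Its log2 change was -0.31 (SE 0.15, 95% interval -0.66 to 0.05, limma adjusted p = 0.237). It was -0.27 between the libraries numbered 1 and -0.34 between those numbered 2.

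The scaffold genes did not pass the test either. The complex I scaffold gene pst1 (SPBC12C2.10c, chromosome II) had 9797 and 8077 normalized counts in set2d, against 9281 and 7757 in WT. The groups overlapped, and within each group replicate 1 was the higher. Its log2 change was 0.07 (SE 0.15, 95% interval -0.27 to 0.41, limma adjusted p = 0.811). The complex II scaffold gene pst2 (SPAC23C11.15, chromosome I) had 9311 and 10269 normalized counts in set2d, against 7766 and 7400 in WT. Both set2d libraries were above both WT libraries, a 1.29-fold difference whose adjusted p missed the threshold. The log2 change was 0.37 (SE 0.12, 95% interval 0.09 to 0.65, limma unadjusted p = 0.0163, adjusted p = 0.0876). It was 0.26 between the libraries numbered 1 and 0.47 between those numbered 2.

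Among the chromatin-reading subunits of complex II, cph1 rose and the other 2 genes did not pass. The gene cph1 (SPAC16C9.05, chromosome I) had 15354 and 11215 normalized counts in set2d, against 7376 and 7029 in WT. The lower set2d value was 1.52 times the higher WT value, and the set2d replicates lay further apart than the WT replicates. The mean was 13284 ± 2926 in set2d and 7203 ± 245 in WT (SD, n = 2 each). The log2 change was 0.87 (SE 0.16, 95% interval 0.50 to 1.23, limma adjusted p = 0.00903), larger in absolute size than that of 91.8% of the genes tested. It was 1.06 between the libraries numbered 1 and 0.67 between those numbered 2. In bulk RNA of an asynchronous culture, more cells with the transcript and more transcript per cell cannot be told apart.

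That call depended in part on the fit. Without set2d replicate 1 the change of cph1 was 0.64 and its adjusted p was 0.0588, and the adjusted p was 0.0548 by limma without a mean-variance trend and 0.12 with no filter on low values. Over the 11 alternatives the log2 change ranged from 0.64 to 1.09 and the adjusted p from 1.33e-12 to 0.12. The lowest came from the fit with the replicate number as a block. That fit left 1 residual degree of freedom, so so small a p is not strong support.

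Its partner PHD finger gene cph2 (SPAC2F7.07c, chromosome I) had 9959 and 9747 normalized counts in set2d, against 11071 and 9648 in WT. Both set2d values lay inside the WT range. The log2 change was -0.07 (SE 0.12, 95% interval -0.35 to 0.21, limma adjusted p = 0.759). The chromodomain gene alp13 (SPAC23H4.12, chromosome I), whose product is also a subunit of the NuA4 acetyltransferase, had 11967 and 10457 normalized counts in set2d, against 10468 and 10913 in WT. The set2d libraries lay on either side of the WT pair. The log2 change was 0.07 (SE 0.12, 95% interval -0.21 to 0.34, limma adjusted p = 0.77). With each library centred on its median the values of alp13 and pst1 were -0.03 and -0.02, so neither has a settled direction.

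**Figure D2:**
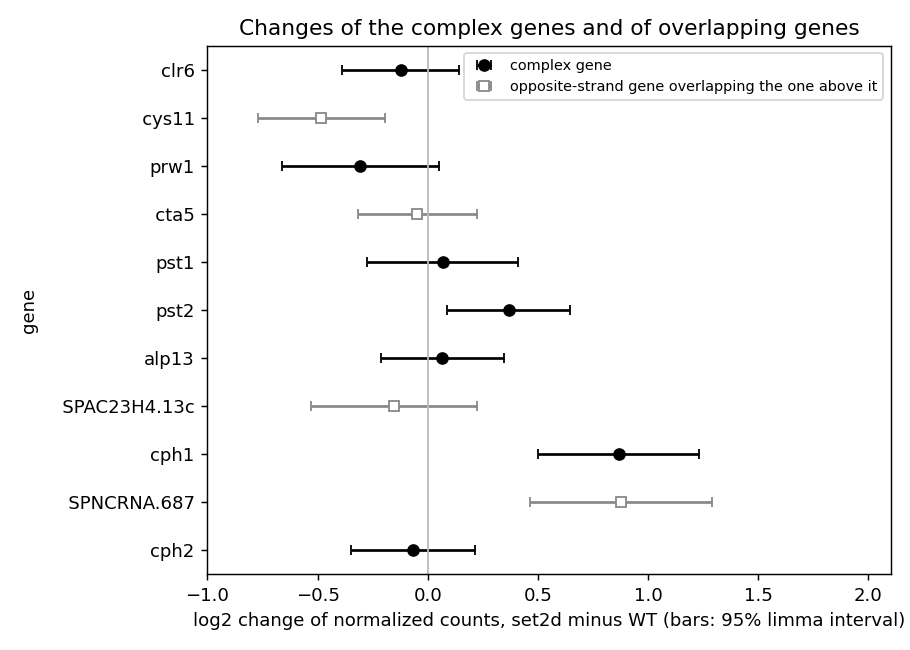
Log2 change of normalized counts, set2d minus WT (horizontal axis), for the 7 complex genes (filled circles) and for the 4 measured genes that overlap one of them on the opposite strand (open squares, each under the gene it overlaps), with 95% limma intervals. The intervals of cph1 (0.50 to 1.23) and of SPNCRNA.687 inside it (0.47 to 1.29) nearly coincide, and both may hold the same reads. Those of the other complex genes except pst2 include 0.

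All 7 members are overlapped by genes annotated on the opposite strand, and the sources used here do not say whether counting used strand. In the ASM294v3 annotation 13 such genes lie over the members, of which 4 were measured under their own names and 9 are not analysed here. For several pairs that overlap almost wholly on opposite strands, the values were nearly equal. The gene clr3 had 8131 and 7583 normalized counts in set2d and 7540 and 7235 in WT. SPNCRNA.1331, over all its exons on the other strand, had 8159 and 7626 in set2d and 7566 and 7179 in WT. The values of leo1 and iws1 were likewise close to those of the genes over them. Reads from the strands of such a locus cannot be told apart in these values. A member may share reads with an overlapping gene. The long non-coding RNA SPNCRNA.4901 covers 83.2% of the clr6 gene and SPNCRNA.2967 covers 96.9% of pst2, and both are among the 9. The exons of prw1 lie wholly within those of cta5, a gene on the other strand. The cta5 values overlapped between the groups, at 14895 and 16952 normalized counts in set2d and 17046 and 15818 in WT. Of the exon length of alp13, 36.4% is shared with SPAC23H4.13c, whose log2 change was -0.15 (limma adjusted p = 0.593).

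The values of SPNCRNA.687, annotated antisense to cph1, were higher in set2d too. They may be cph1 reads counted again, so no rise of antisense RNA is shown. The non-coding RNA SPNCRNA.687 lies wholly inside cph1 on the opposite strand and takes up 32.7% of its length. It had 5275 and 4031 normalized counts in set2d, against 2652 and 2374 in WT. Both set2d libraries were above both WT libraries, and the log2 change was 0.88 (SE 0.18, limma adjusted p = 0.0146). The adjusted p was 0.0886 with WT replicate 2 left out, 0.108 with set2d replicate 1 left out and 0.121 with no filter on low values, each of which ended the call. The SPNCRNA.687 value was 34.4% and 35.9% of the cph1 value in the set2d libraries and 35.95% and 33.8% in the WT libraries, close to its share of the length in all 4. The part each strand played in either rise was not tested.

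The counts of cph1 that SPNCRNA.687 would not share can be had by subtraction, with no test. If every SPNCRNA.687 count was counted for cph1 too, the remainder of cph1 was 10078 and 7184 normalized counts in set2d, against 4724 and 4655 in WT. The SPNCRNA.687 share of cph1 was similar in every library, so the remainder had to change much as the whole gene did. Its log2 change was 0.86, next to 0.87 for the whole gene, which adds nothing to those shares. The subtraction rests on the authors' scaling being linear between the genes, which the sources used here do not give.

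**Figure D3:**
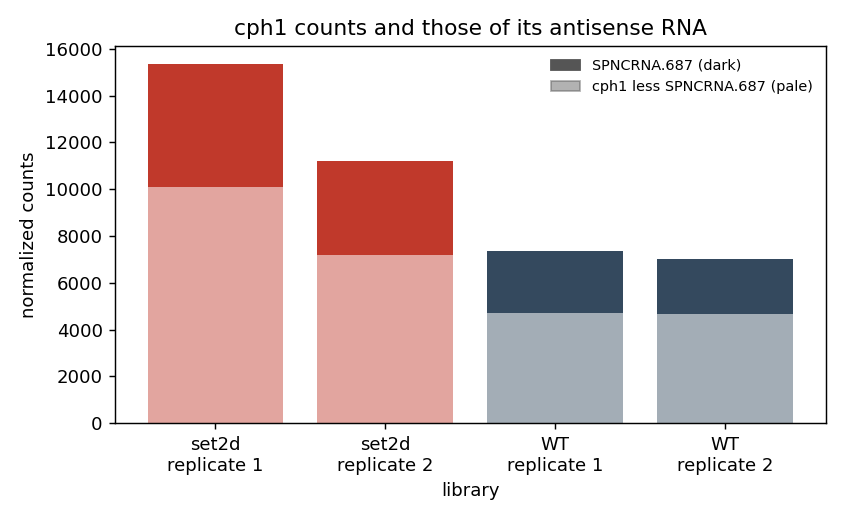
Normalized counts of cph1 in each library (full bar height, linear axis), with set2d in red and WT in dark blue. Each bar is split into the counts given to SPNCRNA.687, annotated on the other strand (dark), and the remainder (pale). The dark share is 34.4% and 35.9% of the bar in set2d and 35.95% and 33.8% in WT, and both parts are higher in each set2d library than in either WT library.

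Genes next to the complex genes were read as a check on local changes. The 3 measured genes on each side of each member make 42 neighbours, of which 2 were higher and 2 lower (9.52%, where 14.3% of all tested genes passed in either direction). These 4 are named because they are few, after their values were seen. SPNCRNA.687 is one. Another is nmd3, the gene of a ribosome export adaptor, upstream of cph1, with a log2 change of 0.40 (limma adjusted p = 0.0497), while mot2 between them was at -0.25 (adjusted p = 0.26). The cysteine synthase gene cys11, which shares 9.4% of the exon length of clr6, had a log2 change of -0.48 (adjusted p = 0.0371), and fun14, upstream of prw1, one of -0.71 (adjusted p = 0.0458). For nmd3, cys11 and fun14 the removal of any single library ended the call, at adjusted p of 0.0534 to 0.487. None of the members lies near a chromosome end, the closest being prw1 at 467 kb, with 5 members on chromosome I and 2 on chromosome II.

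Levels were compared between members per length, as normalized counts per kb of exon in the ASM294v3 annotation. The count ratios of paired subunits, given further below, are the exception. The 2 scaffold genes were the lowest in both strains. In set2d, pst1 had 1804 ± 245 and pst2 2822 ± 195 normalized counts per kb, against 1719 ± 217 and 2186 ± 74.5 in WT (SD, n = 2 each). The ranges of pst1 and pst2 did not overlap within either strain. In WT, 18.7% of 5068 protein-coding genes had a lower level per kb than pst1 and 27.0% a lower one than pst2.

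The other 5 genes stood above the scaffold genes, and cph1 changed its place among them. In set2d it was first by its mean, at 8226 ± 1812 normalized counts per kb. In set2d replicate 2 it was level with alp13, at 6944 against 6939. Its range overlapped those of alp13 (7440 ± 708) and prw1 (6431 ± 1057), which also overlapped each other. The range of prw1 overlapped that of clr6 (6069 ± 118), and cph2 followed without overlap at 4619 ± 70.4. In WT the order was prw1 (7927 ± 1043), alp13 (7094 ± 209), clr6 (6612 ± 280), cph2 (4857 ± 471) and cph1 (4460 ± 152). There the ranges of prw1 and alp13 overlapped, and so did those of cph2 and cph1, while alp13, clr6 and cph2 were separate from each other. Genes on the other strand overlap the members, as cta5 does all exons of prw1, and may share reads with them. Neither order is therefore sure to be that of the members' own RNA.

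**Figure D4:**
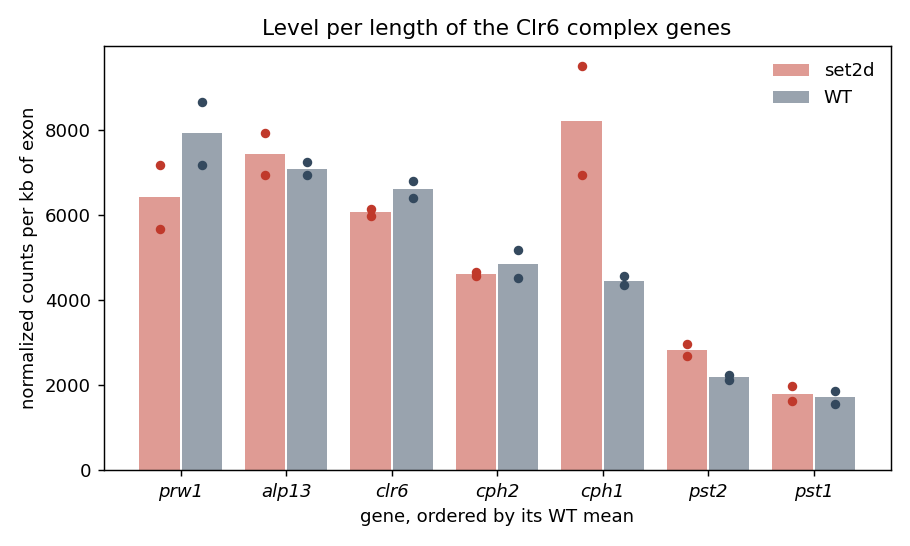
Normalized counts per kb of exon (linear axis) for the 7 genes, ordered by their WT mean, with bars at the means of the 2 set2d (red) and 2 WT (dark blue) libraries and points for single libraries. The gene cph1 stands at 8226 in set2d and 4460 in WT, and the scaffold genes pst2 and pst1 are lowest in both strains.

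A ratio to clr6 within a library does not depend on how libraries were scaled to each other by a single factor. By this measure cph1 RNA stood at 155% and 116% of the clr6 level per kb in set2d, against 67.1% and 67.9% in WT. The ratio was above 100% in both set2d libraries and below it in both WT libraries. The pst2 ratio was 43.6% and 49.5% in set2d, against 32.9% and 33.3% in WT, and again the groups did not overlap. For alp13 it was 129% and 116% in set2d, against 102% and 113% in WT. The ratios of cph2, pst1 and prw1 overlapped between the strains. These 6 ratios share 1 denominator, and with 2 libraries against 2 the smallest p an exact two-sided permutation test can give is 0.333, so the ratios are given as a description.

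The paired subunits were also set against each other. The log2 ratio of cph1 to cph2 counts was 0.62 and 0.20 in set2d, against -0.59 and -0.46 in WT. The sign of the ratio differed between the strains in every library, a difference of 0.93 (exact permutation test, two-sided, p = 0.333, the smallest possible). The log2 ratio of pst2 to pst1 counts was -0.073 and 0.35 in set2d, against -0.26 and -0.068 in WT. Those groups overlapped, with a difference of 0.30 (exact permutation test, two-sided, p = 0.667). These ratios take no account of gene length, so their sign does not rank the levels of the genes in a pair. Per kb of exon, pst2 was above pst1 in both strains. These 2 pairs were the only ones compared.

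The remaining Clr6 subunit genes gave 1 higher and 0 lower among 11, or 1 and 1 at an unadjusted limma p under 0.05. Over all genes tested, 11.6% were higher and 2.77% lower, or 18.6% and 9.62% by the unadjusted rule. The list holds mainly complex I subunits (sds3, dep1, rxt2, rxt3, png2, cti6, laf1 and laf2) together with nts1, mug165 and png3, and its median log2 change was -0.04, beside 0.01 over all genes. The gene nts1 had 6588 and 6450 normalized counts in set2d, against 4765 and 4539 in WT. Its groups did not overlap, and the log2 change was 0.49 (SE 0.13, limma adjusted p = 0.041). The call was close to the threshold and ended with the removal of any single library, at adjusted p of 0.0853 to 0.378, under both other scalings, at 0.0809 and 0.0794, without a trend and with no filter. On the other strand SPNCRNA.7114 covers 51.1% of its exons and SPNCRNA.7115 20.2%, both not analysed here. SPCC24B10.18 covers 5.72% of them and had a log2 change of 1.13 (adjusted p = 0.00235). The largest values that did not pass were -0.40 for dep1 and 0.39 for cti6.

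Among genes of other histone deacetylases and their complexes, 2 of 11 were higher and 0 lower, the same counts as at an unadjusted limma p under 0.05. The background was 11.6% higher and 2.77% lower, or 18.6% and 9.62% by the unadjusted rule. The catalytic genes clr3, sir2, hst2, hst4 and hos2 did not pass. The calls were clr2 and mit1, both of the SHREC complex that holds the deacetylase Clr3. The remodeller gene mit1 had 6895 and 8596 normalized counts in set2d, against 2552 and 2754 in WT. Its log2 change was 1.54 (limma adjusted p = 0.000631). On the other strand SPNCRNA.1401 covers 34.6% of mit1 and had a log2 change of 2.17. It may share reads with mit1, so no rise of antisense RNA is shown. SPNCRNA.4958, over 51.2% of mit1, is not analysed here. The value of clr2 was 0.90 (adjusted p = 0.00563), and the call was lost without set2d replicate 1 (adjusted p = 0.0515) or 2 (adjusted p = 0.0592). Of those that did not pass, snt1 was at -0.43 and hst4 at -0.18. The list's median was -0.03.

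Of 22 genes of histone acetyltransferase complexes, which oppose the deacetylases, 2 were higher and 0 lower, as also at an unadjusted limma p under 0.05. Beside them, 11.6% of all tested genes were higher and 2.77% lower, or 18.6% and 9.62% by the unadjusted rule. Both higher genes encode the large pseudokinase subunits that bind activators. The NuA4 gene tra2 had 15112 and 16546 normalized counts in set2d, against 8714 and 9174 in WT. The SAGA gene tra1 had 11824 and 12182 in set2d, against 7385 and 7298 in WT. Neither overlapped between the strains, and the log2 changes were 0.82 (limma adjusted p = 0.00267) for tra2 and 0.71 (adjusted p = 0.00488) for tra1. On the other strand SPNCRNA.632, over 10.9% of the tra2 exons, had a log2 change of 1.71 (adjusted p = 0.0044), and may share reads with tra2. SPNCRNA.2107, over 27.2% of them, is not analysed here. For tra1, SPNCRNA.1475 covers 9.0% of the exons, with a log2 change of 0.64 that did not pass (adjusted p = 0.131). The NuA4 genes mst1, epl1, vid21, eaf7 and alp5, whose products sit in the complex that also contains Alp13, did not pass. The largest values that missed the threshold were 0.33 for yaf9 and 0.29 for ngg1, and the median of the list was 0.11. The median was 0.20 between libraries numbered 1 and 0.03 between those numbered 2.

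Genes acting with Set2 on elongating polymerase gave 1 higher and 1 lower call among 15, as also at an unadjusted limma p under 0.05. The lower one was set2 itself, whose deletion fixed that call in advance. Across all tested genes the shares were 11.6% higher and 2.77% lower, or 18.6% and 9.62% by the unadjusted rule. The higher one was lsk1, the gene of a cyclin-dependent kinase that phosphorylates the tail of RNA polymerase II. It had 19015 and 18692 normalized counts in set2d, against 6693 and 7391 in WT. The set2d libraries were far above the WT libraries, and the log2 change was 1.42 (SE 0.12, limma adjusted p = 0.000209). In the annotation 3 antisense RNAs, not analysed here, lie over lsk1, the longest covering 41.1% of its exons. Its cyclin gene lsc1 was at 0.01 and lsg1, for the third subunit, at -0.06, both not passing. Of the rest, spt5 at 0.24 and iws1 at -0.15 had the largest values, and the list's median, set2 included, was -0.05.

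**Figure D5:**
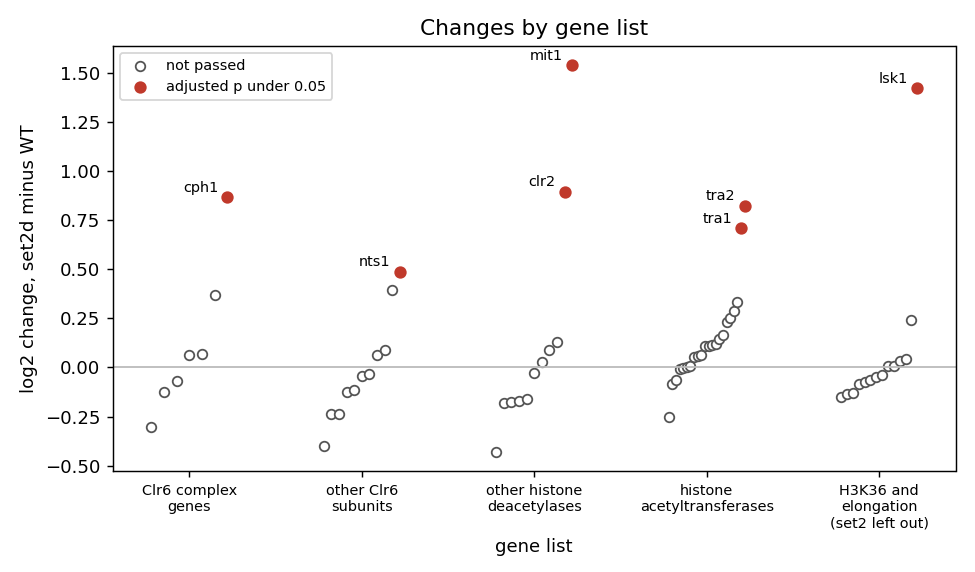
Log2 change, set2d minus WT (vertical axis), of each gene in the 7 complex genes and the 4 further lists, with filled red points for genes at an adjusted p under 0.05 and open points for the rest; set2 at -2.40 is left out of the last list. Each list has 1 or 2 genes that passed, all of them higher in set2d, and its other genes lie between -0.43 and 0.39. Of all tested genes, 11.6% were higher and 2.77% lower.

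The genes whose pattern over the 4 libraries came closest to that of cph1 were zpr1, SPNCRNA.687 and snu4. The measure was the root mean square difference of log2 values after centring each gene on its own mean, and it was 0.0359, 0.0397 and 0.0407. The zinc finger protein gene zpr1 had 71438 and 55063 normalized counts in set2d, against 35390 and 34909 in WT, so that it shared the gap between the set2d replicates. SPNCRNA.687 lies inside cph1 and may share its reads, and snu4 was at the lowest recorded value in both WT libraries. With 6633 genes and 4 libraries, many genes lie near any one pattern.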

How the data were processed

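The submitters' processing notes name the aligner STAR 2.5.4b, the read counter featureCounts 1.5.0-p1 and the build ASM294v2. Their normalization, annotation and strand setting were not given in the sources used here. Values as deposited are log2 normalized counts, which the authors floored at 10, as the values show. In set2d replicate 1, all 684 values between the floor and 400 were whole multiples of 1.06 normalized counts within 0.012 (2.26% by chance), so members had 8689 to 14456 reads there, with a counting error of 0.832% to 1.07%. Elsewhere the best step fitted 22.5% to 64.2% of values, more than by chance (1.74% to 4.39%) but not all. The depth of those 3 libraries is therefore left as unknown.

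Limma 3.58.1 (R 4.3.3) with a mean-variance trend was fitted to the deposited log2 values of 6633 genes that exceeded the floor in 2 or more libraries, 353 being left out, with 2 residual and 6.16 prior degrees of freedom and no covariate. Tests were two-sided, adjusted over all genes at a threshold of 0.05. On simulated data for these 6633 genes the fit recovered 10.0% of changes of 0.5 on the log2 scale, 77.4% of 1 and 96.9% of 2, with 4.83% of calls false. Errors were simulated as independent and drawn from the kind of model that the fit assumes. In each run 200 genes were changed, in equal numbers up and down, where 951 were called in the data. The share of false calls is therefore that of the simulation and does not measure false calls in these data.

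Names, exon lengths, overlaps and gene order came from the ASM294v3 annotation. That assembly is not the authors' build, so no coordinates or sequences are printed. The members and lists were chosen with earlier results of these data known. Named genes are set2, the members, overlapping genes, list genes that passed with the 2 largest others per list, and the 3 genes nearest to the member with the largest change. One listed name, rtf1, belongs in *S. pombe* to an RNA polymerase I termination factor and was left out, leaving 59 list genes. Alternatives changed the filter, scaling, trend, pseudocount, block or libraries.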

Additional observations from a re-analysis of the deposited data

How the results depend on the processing

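Of 77 values of the 7 genes under 11 alternatives, 64 kept their direction and their side of the threshold, 3 lost a call (all of cph1, given with its result), 2 gained one and 8 changed sign. None of the sign changes was of a called gene: alp13 was at -0.0037 and pst1 at -0.0096 with quantile normalization, and alp13 at -0.026 and pst1 at -0.024 with columns centred on the median. With single libraries left out, alp13 ranged from -0.032 to 0.16, cph2 from -0.17 to 0.030, pst1 from -0.071 to 0.21 and the overlapping gene cta5 from -0.14 to 0.046.

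Counts of calls moved more. Leaving out single libraries gave 369 to 574 of all genes, 0 to 1 of the 7 complex genes, 0 to 0 of the other Clr6 subunits (nts1 being lost each time) and 1 to 2 of the other deacetylase genes, with less power since the lone library of a group is assumed to vary like the others. With no filter on low values the counts were 198 of all genes, 0 complex genes, 0 other Clr6 subunits, 0 other deacetylase genes and 1 of the elongation list, and set2 kept its change of -2.40 with an adjusted p of 0.0607. Limma without a trend called 602 genes, 0 complex genes and 0 other Clr6 subunits. Quantile normalization and centring each called 0 other Clr6 subunits. The causes were not tested.

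A fit with the replicate number as a block called 2227 genes (1380 higher, 847 lower), 3 complex genes, 3 other Clr6 subunits, 3 other deacetylase genes and 4 acetyltransferase genes. It added pst2 (adjusted p = 0.00706) and prw1 (adjusted p = 0.0263) to cph1, and dep1, cti6, snt1, yaf9 and ngg1 to the lists (adjusted p of 0.0124 to 0.037). Same-numbered libraries deviated together (correlation across genes 0.451), and their titles share a prefix, but the labels do not say what the prefix or number stands for, and 2 pairs are too few to settle a pairing from the data. Depth is unknown for 3 of the 4 libraries, so no counting error can be given there.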

Other observations

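The replicates of the scaffold gene pst1 and of prw1 differed more than the median gene of like level. The gap between replicates on the log2 scale was 0.28 in set2d and 0.26 in WT for pst1, and 0.34 in set2d and 0.27 in WT for prw1, with replicate 1 the higher in each case. Over the 475 genes between the lowest and highest member mean, the median absolute gap was 0.19 in set2d and 0.09 in WT. The gap of cph1 was 0.45 in set2d and 0.07 in WT. For pst1 the gap between replicates exceeded the difference between the strains.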
